A study of Homo sapiens with 12 samples.

Results

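The genes described here are 33 genes of the ATF4 amino acid response and of the endoplasmic reticulum (ER) stress response, out of 19775 genes tested, in the human breast cancer line MDA-MB-231. Members were taken by gene symbol from a list of names by a rule that uses no measured value, although the list was drawn up with earlier results of these data known, and were read on the 71 probe sets whose only annotated gene was a member. They fall into an ATF4 arm of 20 genes (transcription factors and regulators, serine and one-carbon synthesis, asparagine, cysteine and glutathione enzymes, amino acid transport) and an ER arm of 13 genes (the stress sensors with XBP1, and chaperones with degradation factors). All 33 had at least 1 such probe set, and ALDH1L2 alone read below the median probe set of 5.41.

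The data are 12 one-colour Affymetrix arrays of total RNA, 4 for each of 3 groups, with replicates lettered A to D and called biological by the labels. The Sharp1 cells overexpress Sharp1, the protein of the gene BHLHE41. The sources used here do not say whether they also carry a hairpin or an empty vector. The shHIF cells were infected with a retroviral hairpin construct against both HIF1a and HIF2a (genes HIF1A and EPAS1). The shGFP cells, the control of both, carry a retroviral hairpin against GFP, a protein these cells do not make. All 3 groups grew untreated in serum and glutamine, so no stress agent, starvation or low oxygen was applied, and the labels do not say whether the replicates came from separate infections. P-values therefore measure the spread between these arrays.

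ATF4 is a transcription factor of the integrated stress response. Kinases that sense missing amino acids, misfolded ER protein, viral RNA or low haem phosphorylate the initiation factor eIF2, which lowers general protein synthesis while ATF4 mRNA is translated more; ATF4 then drives genes that make, import and charge amino acids. The ER has its own response, in which EIF2AK3 (PERK) feeds into ATF4 while ERN1 (IRE1) splices XBP1 mRNA and ATF6 is cut to an active fragment, and both of these raise chaperones and degradation factors. Much of this control acts on protein and splicing, which probe set signals do not measure. In tumour cells the pathway is known for sustaining serine, asparagine and cystine supply.

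Values are log2 signals made with RMA, and differences are of mean log2 signal, so that 1 is a 2-fold change; a gene was called at a limma adjusted p under 0.05. The 4 probe sets of BHLHE41 disagreed: in Sharp1 against shGFP cells 1 was 5.35 higher and another 1.59 higher, both from a shGFP mean below the median probe set, so that their sizes are less firmly measured, while the brightest in the mean was 2.06 lower and the other was not called. EPAS1 fell by 2.85 and HIF1A by 0.73 in shHIF cells, and EPAS1 also fell by 0.71 in Sharp1 cells. Of 5 markers of the mesenchymal-like state of this line, 2 were called higher and 1 lower in Sharp1 and 0 higher and 2 lower in shHIF, both against shGFP; VIM averaged 14.55, 14.22 and 14.48 in Sharp1, shHIF and shGFP cells, while CDH1 of luminal epithelium, PTPRC of leukocytes and LUM of fibroblasts lay below the median probe set in all groups. CDH1, PTPRC and LUM are 1 marker of each list, and the levels of the other markers are not given here. Of the 6 luminal, 4 leukocyte and 5 fibroblast markers measured, 0, 1 and 1 were called in Sharp1 against shGFP and 1, 1 and 0 in shHIF against shGFP. The part of these markers in the results was not tested. Arrays A and D of shHIF stood apart: the mean of 18 spike-in probe sets was 10.39 and 10.45 there, against 10.63 and 10.69 on shHIF C and B and 10.68 to 10.81 on the other 8 arrays. Calls of members that change without them are given both ways. The difference between the 3′ and 5′ actin control probe sets, which grows where RNA is degraded, was 0.56 to 0.85 on the Sharp1 arrays, 0.94, 0.90, 0.91 and 0.62 on shHIF arrays A to D and 0.59 to 0.74 on the shGFP arrays; its part in the shHIF results was not tested. In bulk RNA, fewer cells that use a gene and less of its RNA per cell cannot be told apart.

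Sharp1 cells had higher signals for most of the ATF4 arm than shGFP cells. Of its 20 genes, 15 rose and 1, the pseudokinase TRIB3, fell, while 15.3% of all genes were called higher, 11.8% lower and 27.2% in either direction. The largest rises were those of NUPR1 (1.27), CTH (1.08), CHAC1 (0.78) and SLC7A11 (0.76). The median difference over the arm was 0.30, beside -0.0018 over all genes tested. The ER arm was split: of 13 genes, 3 rose (XBP1, ATF6 and HYOU1) and 3 fell (HSP90B1, HSPA5 and CALR), with a median of -0.04. Counted without a test, the 4 Sharp1 arrays lay wholly above or wholly below the 4 shGFP arrays for 17 genes of the ATF4 arm and 5 of the ER arm, against 28.9% of all genes.

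Depletion of both HIF alpha subunits left the ATF4 arm divided. In shHIF against shGFP cells, which share the control arrays with the comparison above, 5 of its 20 genes rose, led by NUPR1 (1.01), and 7 fell, led by SLC7A1 (-0.49), PHGDH (-0.48) and ASNS (-0.36). Among all genes, 17.6% were called higher, 13.2% lower and 30.8% either way; the arm's median was -0.01, against 0.05 over all genes. In the ER arm 3 genes rose (SDF2L1, HYOU1 and EIF2AK3) and 4 fell (ATF6, ERN1, HERPUD1 and HSP90B1), with a median of 0.01. The arrays of the groups did not overlap for 9 genes of the ATF4 arm and 7 of the ER arm, against 28.6% of all genes. With shHIF A and D left out, 4 genes of the ATF4 arm were called higher and 4 lower, and in the ER arm 4 higher and 2 lower.

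Set against each other, Sharp1 cells had more of the amino acid genes than shHIF cells. Of the 20 genes of the ATF4 arm 14 were higher in Sharp1 and 1 lower, with a median of 0.24 beside -0.06 over all genes, where 18.0% were called higher, 20.4% lower and 38.4% either way. CTH (1.21), PHGDH (0.76), SLC7A1 (0.76), ASNS (0.74) and SLC7A11 (0.72) differed most. In the ER arm 4 genes were higher (ATF6, ERN1, XBP1 and HERPUD1) and 5 lower (SDF2L1, HSP90B1, CALR, EIF2AK3 and HSPA5). The groups' arrays did not overlap for 14 genes of the ATF4 arm and 7 of the ER arm, against 35.4% of all genes. Leaving out shHIF A and D gave 11 genes higher and 1 lower in the ATF4 arm. In the ER arm it gave 3 higher and 6 lower, beside 2980 higher and 3493 lower among all 19775 genes.

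**Figure D1:**
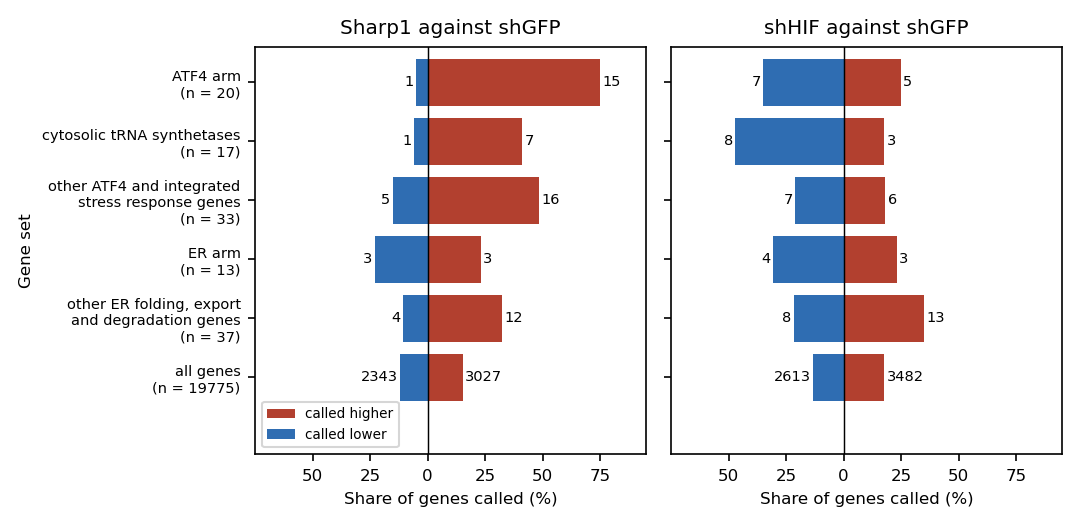
Share of genes called at a limma adjusted p under 0.05, in percent, for the 2 arms, 3 lists of related genes and all 19775 genes in the comparisons of Sharp1 and of shHIF with shGFP, with higher to the right in red, lower to the left in blue and the number of genes at each bar. In Sharp1 against shGFP, 75% of the ATF4 arm was called higher and 5% lower, while in shHIF against shGFP 25% was called higher and 35% lower.

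Single Sharp1 arrays stood apart for the ATF4 arm. The median deviation of its genes from the shGFP mean was 0.26, 0.27, 0.30 and 0.32 on Sharp1 arrays A to D, -0.03, 0.00, -0.02 and -0.02 on shHIF arrays, and 0.01, -0.03, -0.01 and 0.04 on the shGFP arrays themselves. Every Sharp1 array thus lay above all 8 others, while the shHIF and shGFP arrays overlapped. For the ER arm the same median stayed between -0.04 and 0.05 on all 12 arrays. A median near 0 hides genes that moved in opposite directions, which are described one by one.

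**Figure D2:**
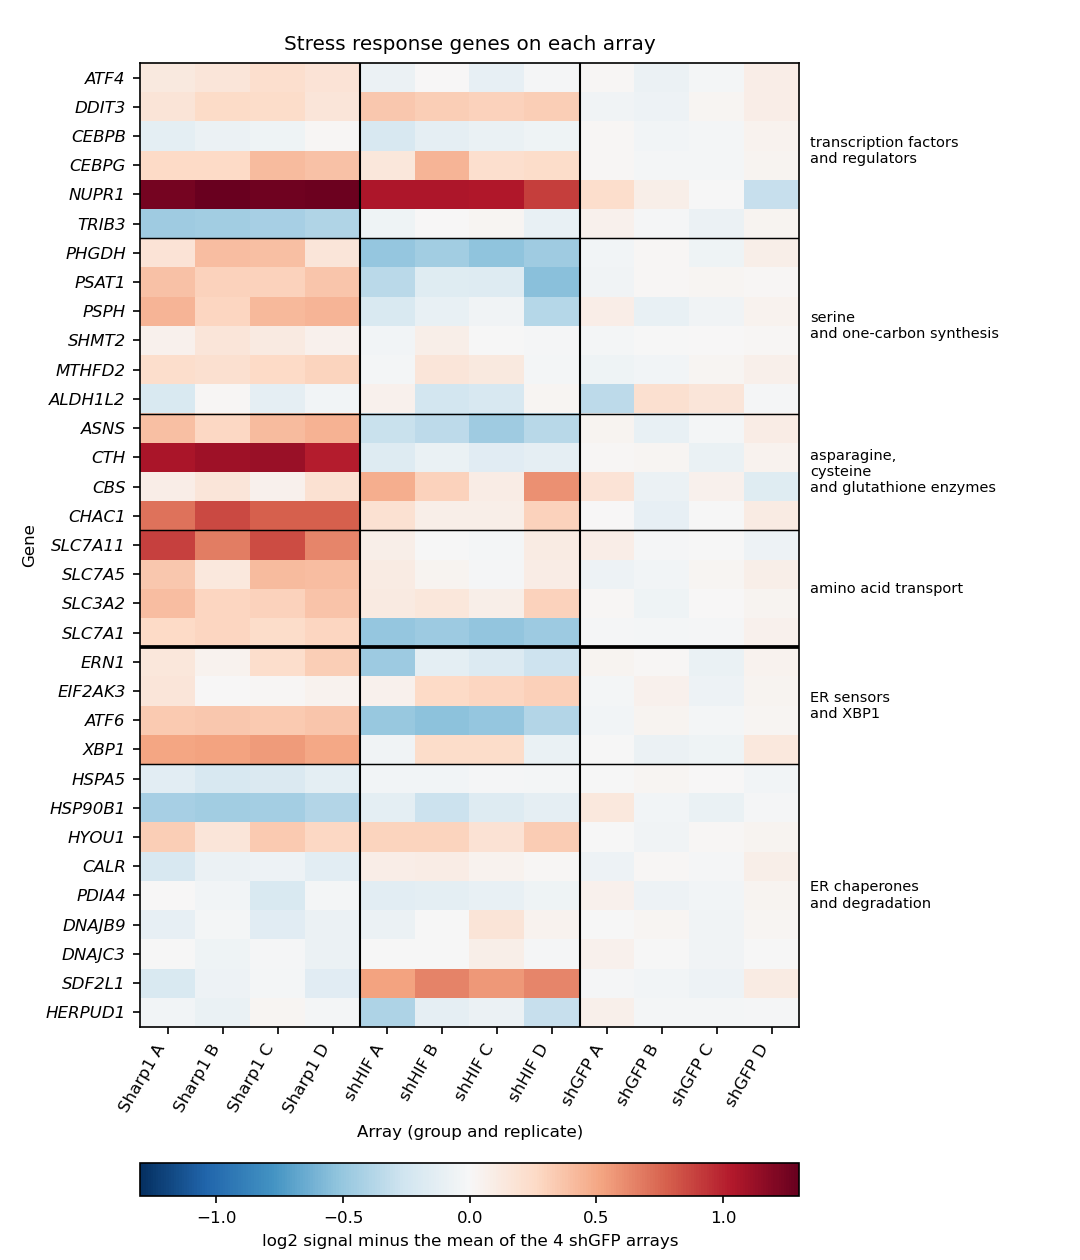
Heat map of the log2 deviation of each member (rows, by role) from its mean over the 4 shGFP arrays, on each of the 12 arrays (columns, Sharp1, then shHIF, then shGFP). The Sharp1 columns are above the control mean for most of the ATF4 arm, whose medians there are 0.26 to 0.32, while the ER rows show both signs.

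Promoter windows from RefSeq (GRCh38.p14, 250 bases before to 50 after a start site) were found for 28 of the 33 members; NUPR1, PSPH, SHMT2, ALDH1L2 and SLC7A11 had none. They were searched on both strands for TGATGNAA, the core of the C/EBP-ATF response element to which ATF4 binds with C/EBP partners. It was present in 5 of 15 members of the ATF4 arm with a window (ASNS, CEBPG, CHAC1, SLC3A2 and SLC7A1) and in 1 of 13 of the ER arm (HERPUD1), and in 4.46% of all 27305 genes in the table. These 5 were called higher in Sharp1 cells, as were 7 of the 10 genes of the arm whose window lacks the element, and HERPUD1 was not called there (-0.03, limma adjusted p = 0.764). A match is a description of the letters and not a measured binding site. The windows of ASNS (chr7:97872359-97872658, minus strand), CHAC1 (chr15:40953221-40953520, plus strand) and CEBPG (chr19:33373863-33374162, plus strand) follow, 5′ to 3′ along the gene. They are printed because these genes carry the element upstream of a start site. Capitals mark it, on the opposite strand in CHAC1. ASNS and CEBPG also have a window at another start site that lacks the element (chr7:97872116-97872415 and chr19:33373459-33373758). In CEBPG that start lies before the printed one, so the element is downstream of it.
ASNS: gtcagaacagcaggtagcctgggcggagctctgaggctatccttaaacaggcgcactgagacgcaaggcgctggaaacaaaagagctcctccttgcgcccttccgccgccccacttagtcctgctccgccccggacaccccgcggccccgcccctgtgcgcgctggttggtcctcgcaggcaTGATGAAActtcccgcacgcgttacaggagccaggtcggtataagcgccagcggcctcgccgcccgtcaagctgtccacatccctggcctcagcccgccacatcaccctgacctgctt
CHAC1: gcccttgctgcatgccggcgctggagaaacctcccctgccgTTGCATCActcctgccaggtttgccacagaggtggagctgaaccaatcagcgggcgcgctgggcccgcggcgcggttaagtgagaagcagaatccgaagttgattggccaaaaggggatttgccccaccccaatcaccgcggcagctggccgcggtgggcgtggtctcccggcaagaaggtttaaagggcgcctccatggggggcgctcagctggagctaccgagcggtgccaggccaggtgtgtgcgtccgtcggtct
CEBPG: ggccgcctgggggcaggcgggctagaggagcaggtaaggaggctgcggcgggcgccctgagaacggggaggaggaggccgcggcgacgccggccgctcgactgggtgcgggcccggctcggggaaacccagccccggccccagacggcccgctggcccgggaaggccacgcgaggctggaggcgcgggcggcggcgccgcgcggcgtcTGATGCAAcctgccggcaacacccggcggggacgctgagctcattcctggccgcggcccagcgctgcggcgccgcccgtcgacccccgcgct

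Counted in bases from the start site of the printed window, the element lay at -68 to -61 in ASNS, at -42 to -35 in CEBPG and at -209 to -202 in CHAC1. SLC7A1 and SLC3A2 held theirs just downstream of a start site, and SLC3A2 has windows at other start sites that lack it. Of the other motifs searched, CACGTG, the E-box read by bHLH factors, was found in 2 of its 15 windows' genes (ATF4 and SLC7A5) and in 8.78% of all genes.

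Of the 6 transcription factors and regulators, 4 rose in Sharp1 cells and 1 fell, 66.7% and 16.7% beside 15.3% and 11.8% of all genes. ATF4 itself read 12.74, 12.78, 12.83 and 12.80 on the Sharp1 arrays, 12.54, 12.63, 12.51 and 12.60 on the shHIF arrays and 12.63, 12.54, 12.59 and 12.71 on the shGFP arrays. All Sharp1 arrays lay above the other 8, and shHIF and shGFP overlapped. The rise in Sharp1 was small, 0.17 ± 0.036 over shGFP (SE, 4 arrays each, limma adjusted p = 0.000699) and 0.22 over shHIF (2.27e-05), and shHIF differed from shGFP by -0.05 (adjusted p = 0.351).

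NUPR1, a small stress-induced nuclear protein, gave the largest rise of all members in both comparisons against shGFP. It read 7.13, 7.17, 7.15 and 7.16 in Sharp1 cells, 6.94, 6.93, 6.92 and 6.79 in shHIF cells and 6.11, 5.96, 5.88 and 5.59 in shGFP cells. The 3 groups did not overlap. It was 2.41-fold higher in Sharp1 than in shGFP (1.27 ± 0.091, adjusted p = 3.69e-11) and 2.01-fold higher in shHIF than in shGFP (1.01, adjusted p = 3.67e-09). The 0.26 between Sharp1 and shHIF had an adjusted p of 0.0276, and it was 0.22 to 0.26 with adjusted p of 0.0536 to 0.0814 when Sharp1 B, C or D or shHIF D was left out, and 0.22 (0.132) without both shHIF A and D.

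DDIT3, the factor CHOP of prolonged stress, also rose in both. Its signals were 9.07, 9.16, 9.15 and 9.07 in Sharp1, 9.27, 9.23, 9.21 and 9.23 in shHIF and 8.86, 8.85, 8.94 and 9.00 in shGFP cells, with no overlap between any groups. The rise was 0.20 in Sharp1 (adjusted p = 0.00266) and 0.32 in shHIF (1.21e-05). Between Sharp1 and shHIF it differed by -0.12 with an adjusted p of 0.0529, which became 0.0438 without Sharp1 B and 0.0414 without shGFP D.

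TRIB3, a pseudokinase that DDIT3 and ATF4 raise and that feeds back on them, was the 1 gene of the arm that fell in Sharp1 cells. It read 8.60, 8.60, 8.62 and 8.66 in Sharp1, 9.00, 9.06, 9.08 and 8.96 in shHIF and 9.11, 9.04, 8.98 and 9.09 in shGFP cells. All Sharp1 arrays lay below all others. The fall was 0.44 ± 0.050 against shGFP (adjusted p = 1.7e-07), and shHIF differed from shGFP by -0.03 (adjusted p = 0.712).

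CEBPG and CEBPB encode C/EBP factors, and CEBPG pairs with ATF4. On its brighter probe set CEBPG read 9.39, 9.40, 9.54 and 9.51 in Sharp1, 9.28, 9.58, 9.36 and 9.37 in shHIF and 9.15, 9.11, 9.11 and 9.18 in shGFP cells, a rise of 0.33 in Sharp1 (adjusted p = 6.88e-05) and of 0.26 in shHIF (0.000826). Its other probe set read 9.22, 9.30, 9.26 and 9.27 in Sharp1, 8.68, 8.81, 8.87 and 8.69 in shHIF and 9.10, 9.14, 9.10 and 9.10 in shGFP cells. Both probe sets were called higher in Sharp1, but the other one was called lower in shHIF, by 0.35, so the direction in shHIF is not settled. CEBPB differed by -0.06 in Sharp1 (adjusted p = 0.334) and fell by 0.12 in shHIF (adjusted p = 0.0369), a call lost without shHIF A or B or shGFP A, C or D, with differences of -0.12 to -0.09 and adjusted p of 0.0531 to 0.153, and also without both shHIF A and D (-0.10, 0.121).

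In serine and one-carbon synthesis, the 3 serine enzymes were called in opposite directions in the 2 comparisons against shGFP. Of 6 genes, 4 rose and 0 fell in Sharp1 (median 0.27), 0 rose and 3 fell in shHIF (median -0.13), and 5 were higher and 0 lower in Sharp1 than in shHIF (median 0.38). Among all genes, 15.3% rose and 11.8% fell in Sharp1, and 17.6% and 13.2% in shHIF. In Sharp1 against shHIF, 18.0% were higher and 20.4% lower. The 3 serine enzymes are, in order of the pathway, PHGDH, PSAT1 and PSPH, of which PSPH lost its shHIF call without shHIF A and D. PHGDH, the entry enzyme, read 8.32, 8.54, 8.54 and 8.30 in Sharp1, 7.65, 7.70, 7.62 and 7.68 in shHIF and 8.11, 8.16, 8.08 and 8.22 in shGFP cells. The groups were stacked without overlap, Sharp1 0.28 above shGFP (adjusted p = 0.0013) and shHIF 0.48 below it (1.99e-06).

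PSAT1, the aminotransferase of the next step, read 12.37, 12.29, 12.29 and 12.35 in Sharp1, 11.64, 11.83, 11.82 and 11.44 in shHIF and 11.94, 12.00, 12.01 and 12.00 in shGFP cells. It had the same order, 0.33 ± 0.056 higher in Sharp1 (adjusted p = 4.52e-05) and 0.31 lower in shHIF than in shGFP (0.000131), with shHIF A and D the lowest arrays. Without these the difference in shHIF was -0.16 (adjusted p = 0.00146). PSPH, the phosphatase that releases serine, read 10.30, 10.14, 10.28 and 10.30 in Sharp1, 9.66, 9.76, 9.81 and 9.48 in shHIF and 9.94, 9.76, 9.81 and 9.90 in shGFP cells. It rose by 0.40 in Sharp1 (adjusted p = 1.15e-05). Its fall of 0.18 in shHIF (adjusted p = 0.0274) came with overlapping arrays and was -0.07 without shHIF A and D (adjusted p = 0.461). It also lost the call without shHIF A, shHIF D, shGFP A or shGFP D, at -0.17 to -0.11 and adjusted p of 0.0623 to 0.132.

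In mitochondrial one-carbon metabolism, MTHFD2, a folate dehydrogenase, read 11.37, 11.35, 11.40 and 11.43 in Sharp1, 11.11, 11.29, 11.27 and 11.11 in shHIF and 11.09, 11.10, 11.17 and 11.21 in shGFP cells. It rose by 0.25 ± 0.044 in Sharp1 (adjusted p = 7.66e-05), with every Sharp1 array above all others, and differed by 0.06 in shHIF (adjusted p = 0.383), or 0.14 without shHIF A and D (0.0168). Sharp1 lay 0.19 above shHIF (adjusted p = 0.000846), or 0.11 without A and D (0.0517). SHMT2, which passes the serine carbon to folate, was 0.09 above shGFP in Sharp1 with an adjusted p of 0.0568, and 0.0427 to 0.047 without Sharp1 A, shHIF B or shHIF D, or 0.0351 without both shHIF A and D. Its call against shHIF (0.09, adjusted p = 0.0491) was lost in 18 of 24 alternative settings, among them leaving out any array other than Sharp1 A, Sharp1 D or shHIF B (0.07 to 0.09, adjusted p of 0.0516 to 0.15) and leaving out both shHIF A and D (0.06, 0.303). ALDH1L2, a mitochondrial folate enzyme, read 3.86 to 4.41 over all 12 arrays and was not called.

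Among the asparagine, cysteine and glutathione enzymes, 3 of 4 rose in Sharp1 cells and 0 fell, beside 15.3% and 11.8% of all genes. ASNS, asparagine synthetase and a classical ATF4 target whose window is printed above, read 10.87, 10.75, 10.89 and 10.93 in Sharp1, 10.18, 10.14, 10.02 and 10.11 in shHIF and 10.51, 10.38, 10.45 and 10.57 in shGFP cells. On this brighter of its 2 probe sets the groups did not overlap. The steps there were about equal: 0.38 ± 0.049 above shGFP in Sharp1 (adjusted p = 8.86e-07) and 0.36 below it in shHIF (2.14e-06). Over the mean of both probe sets, Sharp1 lay only 0.16 above shGFP (limma adjusted p = 0.0238) and 0.42 above shHIF (2.08e-06).

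CTH, the enzyme that releases cysteine in transsulfuration, read 10.35, 10.39, 10.40 and 10.31 in Sharp1, 9.12, 9.20, 9.13 and 9.16 in shHIF and 9.30, 9.31, 9.19 and 9.33 in shGFP cells. It was 2.11-fold higher in Sharp1 (1.08 ± 0.045, adjusted p = 1.38e-15), and every Sharp1 array lay above all others. The fall of 0.13 in shHIF (adjusted p = 0.0308) came with 1 overlap and was lost without shHIF A or C or shGFP A, B or D, at -0.12 to -0.11 and adjusted p of 0.0581 to 0.0801, and also without both shHIF A and D (-0.12, 0.118). Its second probe set had 0.92 in Sharp1 and -0.42 in shHIF, both called.

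CHAC1, which degrades glutathione, read 7.40, 7.55, 7.47 and 7.47 in Sharp1, 6.89, 6.77, 6.77 and 6.99 in shHIF and 6.69, 6.59, 6.68 and 6.80 in shGFP cells. It was 1.72-fold higher in Sharp1 than in shGFP (0.78, adjusted p = 7.64e-09), and shHIF differed from shGFP by 0.16 (adjusted p = 0.107). CBS, which starts transsulfuration, read 5.48 to 5.62 in Sharp1, 5.52 to 6.02 in shHIF and 5.27 to 5.59 in shGFP cells, near the median probe set. It was called 0.37 higher in shHIF (adjusted p = 0.00873) with overlapping arrays, and this was 0.20 without shHIF A and D (adjusted p = 0.232). Its other probe sets were not called. Against shHIF, Sharp1 differed by -0.24 (adjusted p = 0.0746), or -0.33 without shHIF C (0.0125).

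All 4 amino acid transporters rose in Sharp1 cells, with a median of 0.33, while 15.3% of all genes rose. In shHIF cells 1 rose and 1 fell, 25% each way beside 17.6% and 13.2% of all genes, which in 4 genes is near the background. SLC7A11, the xCT subunit that imports cystine, read 11.16, 10.94, 11.12 and 10.91 in Sharp1, 10.35, 10.27, 10.25 and 10.38 in shHIF and 10.36, 10.27, 10.27 and 10.21 in shGFP cells. It was 1.69-fold higher in Sharp1 (0.76 ± 0.053, adjusted p = 2.01e-11) and differed by 0.04 in shHIF (adjusted p = 0.637), where the arrays overlapped. Its 2 other probe sets rose in Sharp1 by 0.89 and 0.43, and the dimmer of these also rose in shHIF, by 0.55.

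SLC7A5, the large neutral amino acid carrier LAT1, read 11.85, 11.63, 11.91 and 11.90 in Sharp1, 11.60, 11.52, 11.48 and 11.59 in shHIF and 11.43, 11.46, 11.52 and 11.57 in shGFP cells. SLC3A2, the heavy chain that both of these carriers need, read 10.20, 10.08, 10.11 and 10.17 in Sharp1, 9.92, 9.95, 9.88 and 10.10 in shHIF and 9.82, 9.74, 9.81 and 9.84 in shGFP cells. Each rose by 0.33 in Sharp1 (adjusted p = 1.03e-05 for SLC7A5 and 5.17e-06 for SLC3A2). In shHIF SLC7A5 differed by 0.05 (adjusted p = 0.47), and SLC3A2 rose by 0.16 (0.0131), or 0.11 with shHIF A and D left out (0.12), 0.11 without shHIF D (0.0641) and 0.14 without shGFP B (0.053).

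SLC7A1, the cationic amino acid carrier CAT1, was higher in Sharp1 and lower in shHIF, as PHGDH was. Its signals were 12.23, 12.26, 12.22 and 12.26 in Sharp1, 11.47, 11.51, 11.46 and 11.50 in shHIF and 11.96, 11.95, 11.96 and 12.04 in shGFP cells. The 3 groups stood well apart, at 0.26 above shGFP in Sharp1 (adjusted p = 4.07e-07) and 0.49 below it in shHIF (1.49e-11). Of its 4 other probe sets 1 was called lower in shHIF and 0 were called in Sharp1, where the mean of all 5 differed by 0.04 (adjusted p = 0.753).

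**Figure D3:**
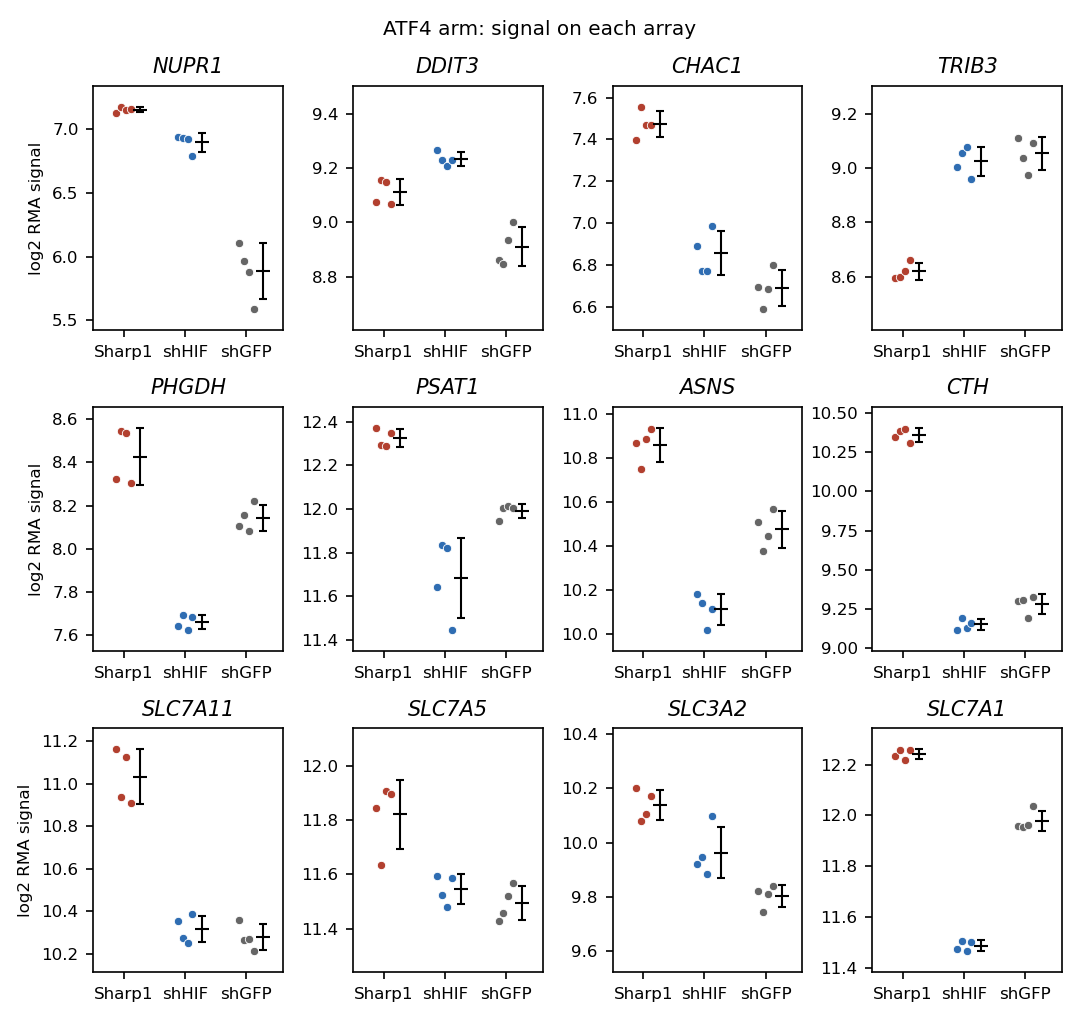
Log2 RMA signal of genes of the ATF4 arm on each array, 1 panel a gene with its own axis, with Sharp1, shHIF and shGFP from left to right; points are arrays and the bar beside them is the mean ± SD of 4. CTH reads 10.31 to 10.40 in Sharp1 and at most 9.33 elsewhere, ASNS and SLC7A1 form 3 separate levels, and TRIB3 is lowest in Sharp1.

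The ER arm's promoters were searched for the ER stress elements that ATF6 and XBP1 read. The letters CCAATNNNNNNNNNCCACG (ERSE) were in 4 of 13 genes (CALR, HSP90B1, HSPA5 and XBP1) and in 0.092% of all genes, and ATTGGNCCACG (ERSE-II) in 3 of 13 (HERPUD1, HYOU1 and SDF2L1) and in 0.070% of all genes; both were in 0 of 15 genes of the ATF4 arm. TGACGTGG, the unfolded protein response element, was in HYOU1, where it overlapped an ERSE-II, and in 0.927% of all genes, and the E-box in DNAJB9, HERPUD1 and HSP90B1. On their brightest probe sets, the genes that share an element did not share a direction. Of the 4 with ERSE, XBP1 rose and the other 3 fell in Sharp1. Of the 3 with ERSE-II, HYOU1 and SDF2L1 rose and HERPUD1 fell in shHIF. The HERPUD1 call was lost without shHIF A and D (-0.09, limma adjusted p = 0.139) and over the mean of its probe sets (0.017, 0.856). Over that mean HSPA5 (-0.007, 0.944) and CALR (-0.09, 0.0661) were not called in Sharp1. XBP1 and HSP90B1 kept their calls in Sharp1 in all 24 alternative settings. Windows of HSPA5 (chr9:125241294-125241593, minus strand), SDF2L1 (chr22:21642052-21642351, plus strand) and HERPUD1 (chr16:56931892-56932191, plus strand) are given as examples of each element and of the 1 gene with both an ATF4 and an ER element. Capitals mark ERSE in HSPA5, ERSE-II in SDF2L1 (opposite strand), and in HERPUD1 first TGATGNAA (opposite strand) and then ERSE-II.
HSPA5: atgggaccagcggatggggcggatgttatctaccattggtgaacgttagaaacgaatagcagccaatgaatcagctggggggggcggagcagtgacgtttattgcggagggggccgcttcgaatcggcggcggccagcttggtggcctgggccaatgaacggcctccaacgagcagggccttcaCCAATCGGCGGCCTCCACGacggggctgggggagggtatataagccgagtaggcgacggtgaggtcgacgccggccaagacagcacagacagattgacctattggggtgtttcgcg
SDF2L1: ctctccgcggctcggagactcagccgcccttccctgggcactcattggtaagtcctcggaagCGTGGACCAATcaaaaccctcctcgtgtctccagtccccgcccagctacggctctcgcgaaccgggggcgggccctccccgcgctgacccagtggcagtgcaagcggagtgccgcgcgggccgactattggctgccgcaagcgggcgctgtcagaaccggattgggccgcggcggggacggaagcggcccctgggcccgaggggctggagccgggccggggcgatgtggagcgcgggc
HERPUD1: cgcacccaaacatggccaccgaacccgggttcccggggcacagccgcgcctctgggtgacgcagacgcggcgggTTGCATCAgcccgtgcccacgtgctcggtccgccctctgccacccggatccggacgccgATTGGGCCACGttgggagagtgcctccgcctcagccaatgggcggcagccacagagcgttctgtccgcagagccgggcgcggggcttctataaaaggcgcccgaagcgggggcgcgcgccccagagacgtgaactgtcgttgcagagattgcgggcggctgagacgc

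Of the sensors and XBP1, 2 of 4 rose and 0 fell in Sharp1 cells, beside 15.3% and 11.8% of all genes. XBP1 read 9.45, 9.45, 9.48 and 9.44 in Sharp1, 8.89, 9.17, 9.18 and 8.85 in shHIF and 8.93, 8.85, 8.88 and 9.07 in shGFP cells. All Sharp1 arrays were above the others, by 0.52 ± 0.067 over shGFP (adjusted p = 9.88e-07) and 0.43 over shHIF (9.1e-06), or 0.28 over shHIF without shHIF A and D (0.000576). In shHIF it differed from shGFP by 0.09 (adjusted p = 0.353), or 0.24 without shHIF A and D (0.00326). The probe set signal does not tell spliced from unspliced XBP1 mRNA.

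ATF6 gave 3 separate levels like SLC7A1. It read 9.75, 9.77, 9.76 and 9.78 in Sharp1, 8.92, 8.89, 8.91 and 9.04 in shHIF and 9.38, 9.45, 9.39 and 9.44 in shGFP cells, which is 0.35 above shGFP in Sharp1 (adjusted p = 1.34e-06) and 0.48 below it in shHIF (1.19e-08). Of its 3 other probe sets 2 were called the same way in both comparisons, and 1 was not called (0.07 in Sharp1 and 0.09 in shHIF).

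ERN1, the kinase and nuclease that splices XBP1, read 7.07, 6.97, 7.15 and 7.24 in Sharp1, 6.45, 6.79, 6.75 and 6.66 in shHIF and 6.96, 6.94, 6.83 and 6.97 in shGFP cells. It fell by 0.26 in shHIF (adjusted p = 0.0183), or by 0.19 without shHIF A (0.0868) and 0.15 without both A and D (0.244), and a second probe set fell by 0.51. Sharp1 differed from shGFP by 0.19 (adjusted p = 0.111) and was 0.45 above shHIF (9.93e-05). EIF2AK3, the PERK kinase upstream of ATF4, read 8.90 to 9.05 in Sharp1, 8.95 to 9.20 in shHIF and 8.82 to 8.94 in shGFP cells. It rose by 0.23 in shHIF (adjusted p = 0.00333), or 0.13 over the mean of its probe sets (0.174), and differed by 0.06 in Sharp1 (0.573). Sharp1 was 0.17 below shHIF (adjusted p = 0.02), a call lost without Sharp1 B or C or shHIF C or D, at -0.16 to -0.14 and adjusted p of 0.0513 to 0.0647.

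Of the 9 chaperones and degradation factors, 1 rose and 3 fell in Sharp1 cells (median -0.09), which is 11.1% and 33.3% beside 15.3% and 11.8% of all genes. The falls of HSPA5 (-0.007, limma adjusted p = 0.944) and CALR (-0.09, 0.0661) were not called over the mean of their probe sets. In shHIF cells 2 rose and 2 fell (median 0.01), 22.2% each way beside 17.6% and 13.2%, which in 9 genes is near the background. HSP90B1, the ER form of HSP90, read 10.38, 10.36, 10.38 and 10.43 in Sharp1, 10.69, 10.54, 10.65 and 10.70 in shHIF and 10.95, 10.78, 10.73 and 10.80 in shGFP cells. Its groups did not overlap and stood in the order Sharp1, shHIF, shGFP from low to high, 0.43 ± 0.047 lower in Sharp1 (adjusted p = 8.3e-08) and 0.17 lower in shHIF than in shGFP (0.00595). Its brightest probe set, like that of CALR, carries the suffix of probes that can bind other transcripts. HSP90B1 probe sets that are also annotated to MIR3652 were left out.

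HSPA5, the chaperone BiP that holds the sensors inactive, read 12.75, 12.68, 12.70 and 12.76 in Sharp1, 12.86, 12.85, 12.88 and 12.86 in shHIF and 12.88, 12.92, 12.90 and 12.86 in shGFP cells. It was 0.17 ± 0.029 lower in Sharp1 than in shGFP (adjusted p = 7.98e-05), with no overlap, and differed by -0.03 in shHIF (0.549). Its dimmer probe set went the other way, with 0.15 in Sharp1 against shGFP (not called) and 0.34 in Sharp1 against shHIF (called higher), and the mean of both was -0.01 in Sharp1 against shGFP (adjusted p = 0.944). CALR, calreticulin, fell by 0.12 in Sharp1 with overlapping arrays (adjusted p = 0.029), a call lost without Sharp1 A or D or shGFP B or D, at -0.12 to -0.09 and adjusted p of 0.0656 to 0.132. Sharp1 lay 0.18 below shHIF for CALR (adjusted p = 0.000741).

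HYOU1, a large chaperone that also exchanges nucleotide on BiP, rose in both comparisons against shGFP. It read 10.19, 10.03, 10.22 and 10.14 in Sharp1, 10.16, 10.17, 10.06 and 10.20 in shHIF and 9.86, 9.83, 9.89 and 9.91 in shGFP cells. The rise was 0.27 in Sharp1 (adjusted p = 5.23e-05) and 0.28 in shHIF (4.33e-05), and the arrays of Sharp1 and shHIF overlapped.

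SDF2L1, a cofactor of BiP whose ERSE-II is printed above, was called higher in shHIF cells and not in Sharp1 cells. It read 8.74, 8.87, 8.92 and 8.80 in Sharp1, 9.46, 9.58, 9.51 and 9.58 in shHIF and 8.93, 8.91, 8.87 and 9.05 in shGFP cells. All shHIF arrays lay above the other 8, 1.51-fold over shGFP (0.59 ± 0.053, adjusted p = 3.74e-09). Sharp1 differed from shGFP by -0.11 (adjusted p = 0.156) and from shHIF by -0.70 (6.57e-11).

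HERPUD1, of ER-associated degradation, read 10.72, 10.67, 10.79 and 10.74 in Sharp1, 10.36, 10.65, 10.69 and 10.46 in shHIF and 10.82, 10.74, 10.74 and 10.74 in shGFP cells. Its fall of 0.22 in shHIF (adjusted p = 0.00237) rests on arrays A and D, without which it was -0.09 (0.139). Sharp1 lay 0.19 above shHIF (adjusted p = 0.00629), or 0.06 without A and D (0.332). PDIA4, a disulfide isomerase, differed by -0.06 in Sharp1 and -0.10 in shHIF. DNAJB9 and DNAJC3, co-chaperones of BiP, differed by -0.09 and -0.04 in Sharp1 and by 0.04 and 0.01 in shHIF. These 3 genes were not called on their brightest probe set in any comparison, although DNAJC3 was called lower on 1 of its other probe sets in Sharp1 (-0.30) and on another in shHIF (-0.36). DNAJB9 in Sharp1 against shHIF (-0.12, adjusted p = 0.0905) passed without shHIF A (-0.16, 0.0358) and without both A and D (-0.17, 0.0448).

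**Figure D4:**
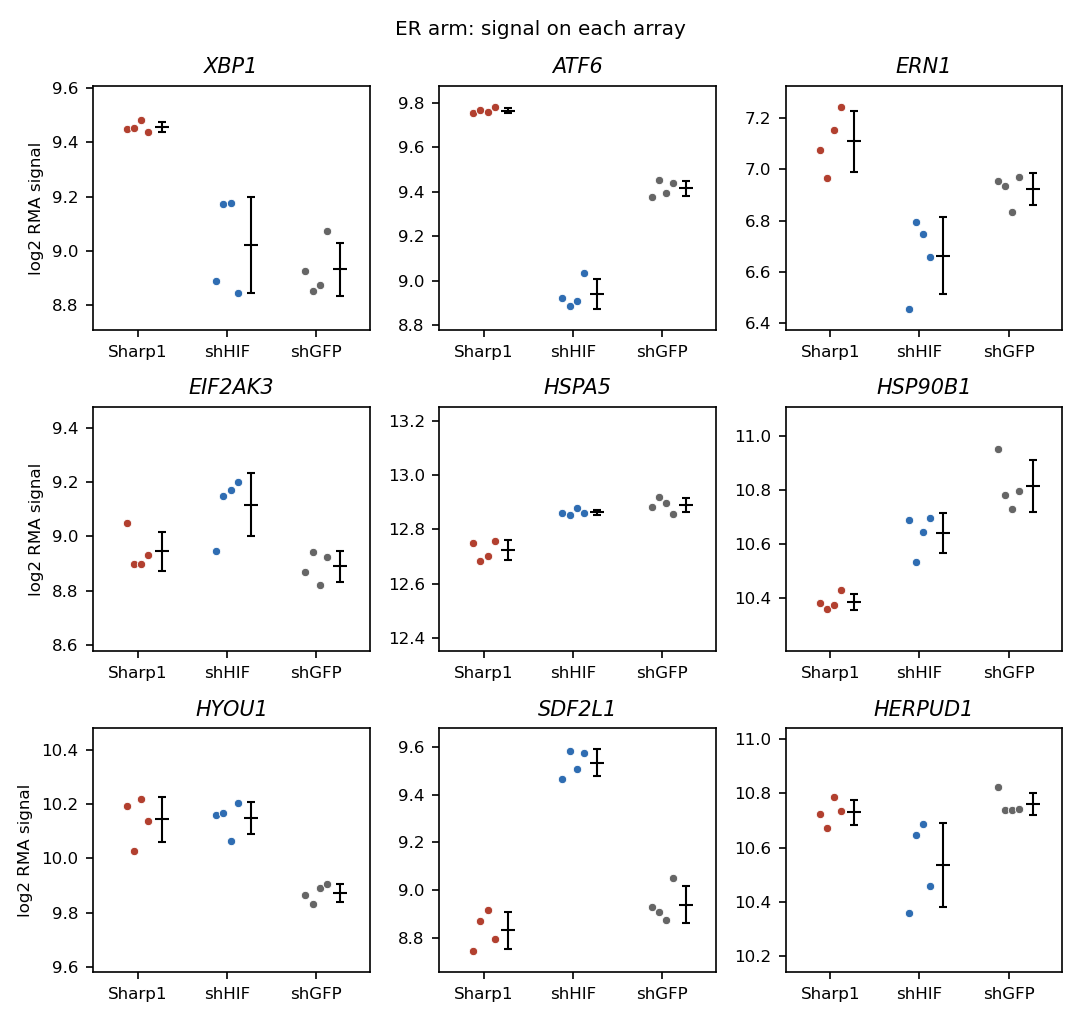
Log2 RMA signal of 9 genes of the ER arm on each array, 1 panel a gene with its own axis, with Sharp1, shHIF and shGFP from left to right; points are arrays and the bar is the mean ± SD of 4. XBP1 is high in Sharp1, ATF6 forms 3 levels, SDF2L1 is high in shHIF at 9.46 to 9.58, HSP90B1 and HSPA5 are lowest in Sharp1, and in XBP1 and HERPUD1 the shHIF arrays A and D lie below B and C.

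All 71 probe sets were also read in a fit adjusted over all 54613. In Sharp1 against shGFP, 21 of 40 probe sets of the ATF4 arm were called higher and 1 lower, and 5 of 31 of the ER arm higher and 5 lower, beside 9.82% and 8.26% of all probe sets. In shHIF against shGFP the counts were 6 higher and 10 lower in the ATF4 arm and 3 and 9 in the ER arm, beside 10.7% and 11.5%. In Sharp1 against shHIF they were 20 and 2 in the ATF4 arm and 8 and 7 in the ER arm, beside 15.3% and 13.8%. The ER arm thus had more lower calls among its probe sets in shHIF, and 1 more higher than lower call in Sharp1 against shHIF, where its brightest probe sets had 4 higher and 5 lower. Over the mean of its probe sets, the Sharp1 difference from shGFP was 0.16 for ASNS (adjusted p = 0.0238), 0.33 for XBP1 (0.000794) and -0.27 for TRIB3 (0.000128). The shHIF difference was then -0.29 for SLC7A1 (0.00184), -0.29 for ATF6 (9.22e-05), -0.29 for HSP90B1 (0.000119), -0.27 for CTH (0.000124) and 0.19 for SLC7A11 (0.0246). All 8 were called, 7 of them with the direction and call of the brightest probe set and SLC7A11 as a gain. Probe sets below the median probe set numbered 9 in the ATF4 arm and 4 in the ER arm. CEBPG in shHIF against shGFP and HSPA5 in Sharp1 against shHIF were the 2 cases with probe sets called in both directions.

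**Figure D5:**
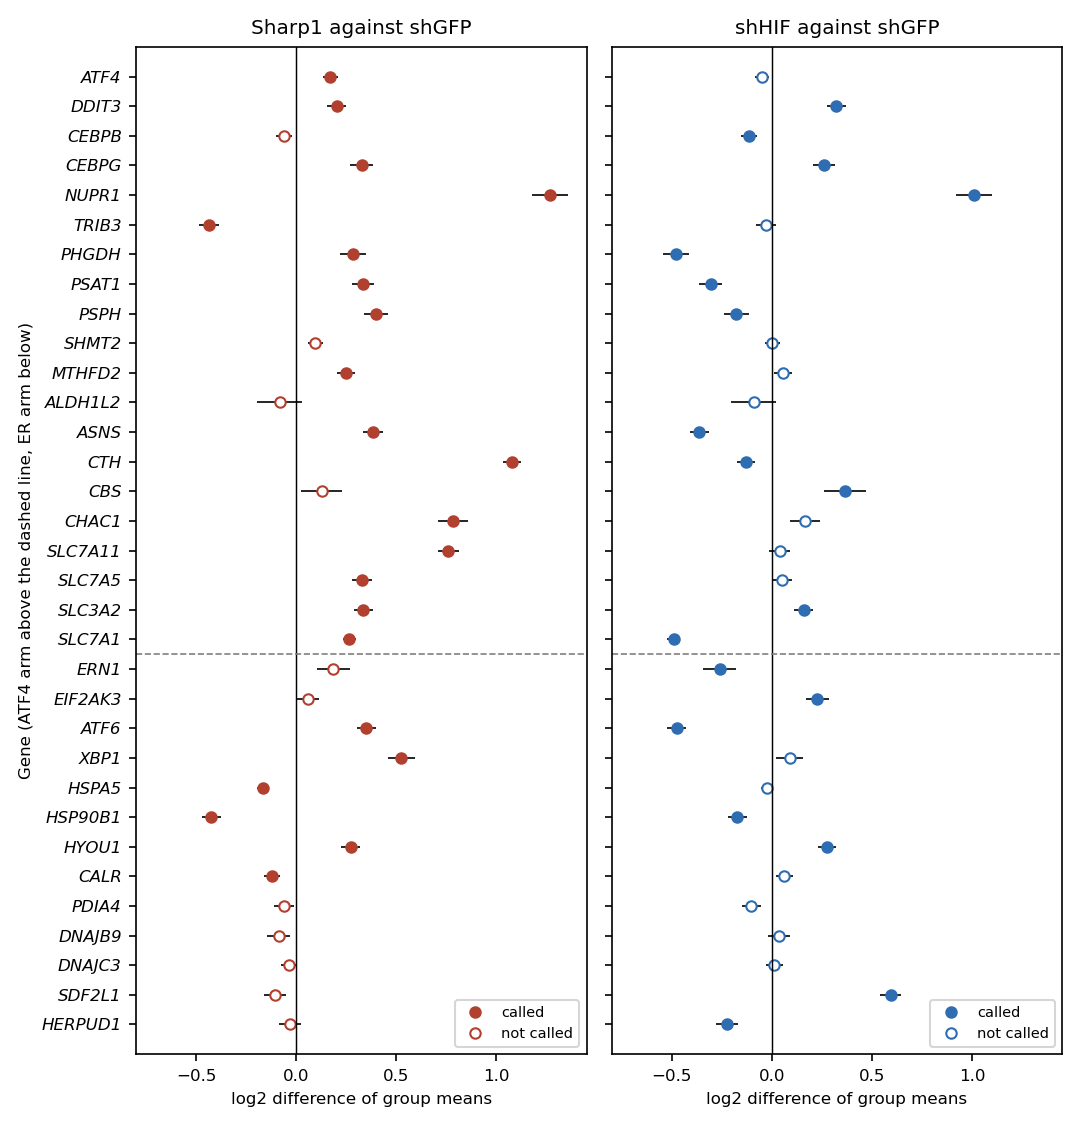
Log2 difference of each member from shGFP, with its standard error, for Sharp1 (red) and shHIF (blue), on the gene's brightest probe set; filled points were called at a limma adjusted p under 0.05. NUPR1 is far right in both, and CTH, CHAC1 and SLC7A11 lie at 0.76 to 1.08 in Sharp1. PHGDH, PSAT1, PSPH, ASNS, CTH, SLC7A1 and ATF6 have filled points on opposite sides of 0. The shHIF calls of PSPH and CTH were lost without shHIF A and D.

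The cytosolic tRNA synthetases, which charge tRNAs with amino acids and of which many are ATF4 targets, were read on 17 of 20 genes. In Sharp1 against shGFP 7 rose and 1 fell, with a median of 0.05, which is 41.2% and 5.9% beside 15.3% and 11.8% of all genes. WARS1 (tryptophan) rose by 0.40 (adjusted p = 6.12e-08), FARSA (phenylalanine) by 0.28 and AARS1 (alanine) by 0.25, while YARS1 (tyrosine) fell by 0.34. In shHIF against shGFP 3 rose and 8 fell (median -0.08), or 4 to 8 fell when single arrays were left out, with 4 without shGFP B. The share that rose, 17.6%, is that of all genes (17.6%), and 47.1% fell beside 13.2%. GARS1 (glycine) fell by 0.35 (adjusted p = 7.63e-08), FARSB by 0.30 and SARS1 (serine) by 0.21, while VARS1 (valine) rose by 0.28 and HARS1 (histidine) by 0.17. LARS1 (leucine) had a probe set in each direction there, called 0.15 higher and 0.15 lower. Against shHIF, 12 were higher and 3 lower in Sharp1, with a median of 0.20. That is 70.6% and 17.6%, beside 18.0% and 20.4% of all genes, so the lower share is near the background. SARS1 led the rises. It read 12.00 to 12.05 in Sharp1, 11.45 to 11.64 in shHIF and 11.70 to 11.84 in shGFP cells, 3 ranges without overlap.

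Of 33 other ATF4 and integrated stress response genes measured, 16 rose and 5 fell in Sharp1 cells, with a median of 0.12. That is 48.5% and 15.2%, beside 15.3% and 11.8% of all genes, so the share that fell is near the background. INHBE, an activin subunit, rose by 2.71 (adjusted p = 1.71e-14), with 6.11, 6.17, 6.28 and 6.03 in Sharp1, 3.76, 3.27, 3.60 and 3.44 in shHIF and 3.23, 3.10, 3.62 and 3.79 in shGFP cells. All Sharp1 arrays lay above the others, and the shHIF and shGFP values lie below the median probe set, so the size of the rise is less firmly measured. JDP2, a bZIP repressor, rose by 1.47 and SLC1A4, a neutral amino acid carrier, by 1.19 on its brightest probe set. GDF15, a stress cytokine, fell by 1.57 in Sharp1, with 6.01, 5.49, 5.37 and 5.74 there, 7.76, 7.84, 7.83 and 7.97 in shHIF and 7.10, 7.09, 7.14 and 7.54 in shGFP cells. SLC43A1 (-0.75), an amino acid carrier, and DDIT4 (-0.42), an inhibitor of mTORC1, also fell. The brightest probe sets of SLC1A4 and GDF15, like that of HSP90B1, carry the suffix of probes that can bind other transcripts.

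In shHIF cells 6 of these 33 rose and 7 fell, with a median of 0.0030; the 18.2% that rose is near the 17.6% of all genes called higher, and 21.2% fell beside 13.2%. ATF3, a stress-induced repressor, rose by 0.72 (adjusted p = 2.5e-08), GDF15 by 0.63 (0.19 over the mean of its probe sets, adjusted p = 0.0637) and CEBPD by 0.51. NIBAN1, a stress-induced protein, fell by 1.28, with 10.94, 10.88, 10.94 and 10.91 in Sharp1, 8.74, 8.86, 8.93 and 8.71 in shHIF and 10.09, 10.04, 10.03 and 10.20 in shGFP cells. DDIT4 (-0.33) and PCK2 (-0.34), a mitochondrial carboxykinase, fell as well. In the direct comparison 15 were higher in Sharp1 and 7 lower, with a median of 0.06. That is 45.5% and 21.2%, beside 18.0% and 20.4% of all genes, so the lower share is near the background. INHBE (2.63), NIBAN1 (2.11) and JDP2 (1.48) led upward and GDF15 (-2.20), SLC43A1 (-0.85) and ATF3 (-0.38) downward.

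Of 37 other ER folding, export and degradation genes, 12 rose and 4 fell in Sharp1 (median 0.06) and 13 rose and 8 fell in shHIF (median 0.01). In Sharp1 that is 32.4% and 10.8%, beside 15.3% and 11.8% of all genes, so the share that fell is near the background. In shHIF it is 35.1% and 21.6%, beside 17.6% and 13.2%. KDELR3, a receptor that returns chaperones to the ER, rose in both, by 0.74 in Sharp1 (adjusted p = 3.91e-12) and 0.59 in shHIF (5.08e-10). CREB3L1 and CREB3L2, ATF6-like membrane-bound factors, rose by 0.51 and 0.36 in Sharp1, while WFS1, an ER membrane glycoprotein, fell by 0.62, the lectin chaperone CANX by 0.33 and the isomerase PDIA6 by 0.20. The brightest PDIA6 probe set also has the suffix of probes that can bind other transcripts. In shHIF, SERP1 (0.48) and CRELD2 (0.45) rose and the mannosidase-like EDEM3 (-0.70) and the oxidases ERO1B (-0.69) and ERO1A (-0.40) fell; another ERO1A probe set was called 0.16 higher. Against shHIF, 17 were higher in Sharp1 and 11 lower, 45.9% and 29.7% beside 18.0% and 20.4% of all genes. EDEM3 (0.65), CREB3L1 (0.62) and EDEM1 (0.54) were highest. WFS1 (-0.81), SERP1 (-0.54) and SIL1 (-0.42), an exchange factor of BiP, were lowest, although another SERP1 probe set was called 0.15 higher.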

How the data were processed

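The deposited values are log2 expression values per probe set, made with RMA by the authors per the submitters' processing notes, which covers background correction, normalization between arrays and summary over probes. No version of it was given. Detection calls, scan dates and depths were not used, so the 4 arrays per group limit the precision. Gene names came from the platform's annotation, in which, of 54675 probe sets, 62 were control probe sets, 41097 had 1 gene symbol, 1801 several and 11777 none. Member probe sets shared with another symbol, 3 in all, were left out.

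The brightest probe set by mean signal stood for a gene, and 19775 genes were tested. limma 3.58.1 in R 4.3.3 fitted a mean per group to all 12 arrays, and eBayes with trend was followed by Benjamini-Hochberg adjustment within each of the 3 comparisons. The fit was tested on simulated data. A second fit covered all 54613 probe sets that are not controls. The counts of members were read beside the share of all genes called, with no set test. That share is not matched to the members for signal level or spread. The median SD within groups was 0.081 in the ATF4 arm, 0.069 in the ER arm and 0.110 over all genes. The part of level and spread in the counts was not tested.

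Members, gene lists and tests were chosen with earlier results of these data known. All members are named, with up to 3 called genes with the largest rise and 3 with the largest fall per list and comparison. Some genes of the lists were not analysed here. Promoter sequences are RefSeq's. Replicate letters were not used as pairs: deviations of same-letter arrays from their group means correlated at -0.18 to 0.14, over 0.1 in 1 of 12 pairs.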

Additional observations from a re-analysis of the deposited data

Results flagged for a closer look

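In 6 of 99 groups of 4 arrays of a member, 1 array stood apart from the other 3 by Dixon's test at its 95% limit; chance gives about 1 in 20. In shHIF cells, array D read 6.79 for NUPR1, against 6.92 to 6.94 on the others, and array C read 10.09 for DNAJC3, against 10.00 to 10.01. In Sharp1 cells, array B read 10.14 for PSPH, against 10.28 to 10.30. In shGFP cells, array A read 11.94 for PSAT1, against 12.00 to 12.01, and 10.82 for HERPUD1, against 10.74, and array D read 12.04 for SLC7A1, against 11.95 to 11.96. Each of these gaps is under 0.15. Without shHIF D, NUPR1 in Sharp1 against shHIF was 0.22 and no longer called (limma adjusted p = 0.0814).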

How the results depend on the processing

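Under 24 alternatives, 2234 of 2373 member differences kept their direction and side of the threshold. Another 31 changed sign without being called in either setting, 79 lost the call and 25 gained it. The remaining 4 changed sign and were no longer called. With the mean of all probe sets of a gene, CEBPG and HERPUD1 in shHIF against shGFP became -0.043 and 0.017 (limma adjusted p = 0.519 and 0.856). HSPA5 and HERPUD1 in Sharp1 against shHIF became 0.10 and -0.011 (0.0862 and 0.892). Among the other named genes CREB3L2 became -0.050 in Sharp1 against shHIF (0.425). BHLHE41 in Sharp1 became 1.19 against shGFP (1.76e-09) and 1.16 against shHIF (1.66e-09), both called. In Sharp1 against shGFP the ATF4 arm had 15 or 16 genes called higher and 1 lower in every setting, though with the mean of probe sets SLC7A1 lost its call (0.04, limma adjusted p = 0.753) and SHMT2 gained one (0.13, 0.0061), and the ER arm had 1 lower with the mean of probe sets. The tRNA synthetases called lower there were 2 with quantile normalization and 1 to 2 when single arrays were left out.

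In shHIF against shGFP, genes of the ATF4 arm called lower were 4 without the trend, at a threshold of 0.01 or with shHIF A and D left out, and 4 to 7 when single arrays were left out; the ER arm had 2 lower with A and D left out, and the other ATF4 genes 4. The tRNA synthetases called numbered 7, of them 4 lower, without the trend or at 0.01, 5 lower with the mean of probe sets, and 7 to 12 called and 4 to 8 lower when single arrays were left out. In Sharp1 against shHIF, genes of the ATF4 arm called lower were 2 with the mean of probe sets, quantile normalization, dim genes left out or array weights, and 1 to 2 when single arrays were left out; the other ER genes called were 18, of them 8 higher, with the mean of probe sets, and 11 higher with A and D left out.

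With the replicate letter as a replicate block, 98 of 99 member differences kept their call, all but SHMT2 in Sharp1 against shHIF, and genes called numbered 5186, 5897 and 7373, against 5370, 6095 and 7588. No letter is known to mark a shared culture. The cause of these changes was not tested.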
